A study of Mus musculus with 12 samples.

Results

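The liver sinusoidal endothelial genes described here are 10 genes, Flt4, Stab1, Stab2, Lyve1, Clec4g, Kdr, Tek, Oit3, Pecam1 and Fcgr2b, chosen by name from the array annotation, out of 19938 genes with a single symbol on the array. They had 11 of the 28853 probe sets, called probes below, and each gene is given by its probe with the highest mean over all 12 arrays. The study measured liver RNA from 12 male C57BL/6J mice on Affymetrix expression arrays, with 1 array per animal. It asked what deletion of either part of telomerase, the enzyme that extends chromosome ends, does to gene expression. The groups were 3 first-generation mTERT knock-outs (KO), which lack the protein part encoded by Tert, 3 mTERT wild types (WT), 3 first-generation mTR KO, which lack the RNA part encoded by Terc, and 3 mTR WT. The labels give no age beyond matching, and state that wild types and knock-outs of a set were littermates; the number in a sample's label, 1, 2 or 3, was read as its set, which makes 6 litters. The counts of litters below rest on that reading, and the arrays themselves do not settle which KO and WT of set 2 belong together. The share of all probes with every litter of a line in the same direction is not given. Such counts can thus not be called particular to these genes. All values are log2 intensities as deposited, with the base of the logarithm read as 2, and a difference of 1 is then a 2-fold difference.

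Liver sinusoidal endothelial cells line the capillaries of the liver. Unlike most endothelium they have open pores and no continuous basement membrane, and they clear waste molecules from blood by endocytosis through scavenger, lectin and Fc receptors. They also carry receptors for vascular growth factors, and several of the genes here mark this endothelium among the blood vessels of the body.

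All 10 genes lay above the background level of 4.34, taken as the 95th percentile of the 1027 genes for olfactory receptors, a family of the nose. The second Clec4g probe stayed below that level on every array, between 3.70 and 4.10, and adds nothing to the description. Of 21 further sinusoidal endothelial genes with a probe, 19 had a mean above background, as had 16 of 18 genes shared by all endothelium. Fcgr2b is also known from B cells, and 0 of 6 B cell genes had a mean above background. Stab1 and Lyve1 are also known from macrophages, and all 14 genes of Kupffer cells, the liver's macrophages, were above background. Which cells the RNA of the 10 genes came from, Fcgr2b included, was not measured. In whole liver, fewer cells of a type and less RNA per cell cannot be told apart.

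Array medians lay between 4.37 and 4.43. The Tert probe, the check of the mTERT deletion, read 3.95, 4.07 and 4.15 in mTERT KO livers 1, 2 and 3, against 4.13, 4.78 and 4.83 in mTERT WT livers 1, 2 and 3. The array labelled mTERT WT 1 thus lay within the KO range and below background, so its Tert value does not set it apart from the KO, and on the mTR arrays Tert read 4.58 to 5.04. The Terc probe, at 3.87 to 4.48 over all arrays, lay around background and checks nothing. Arrays differed in RNA of other tissues: the mean of 13 pancreas acinar genes was 9.74, 7.30, 8.85, 11.23 and 6.77 on mTERT KO 1, the array labelled mTERT WT 1, mTERT WT 2, mTR KO 1 and mTR WT 2, and 3.76 to 3.96 on the remaining 7. That of 14 skeletal muscle genes was 6.83 and 6.57 on the arrays labelled mTERT WT 1 and mTERT WT 3, and 3.92 to 4.52 on the other 10. The 4 arrays of set 1 stood apart from the rest in all groups, with a mean of 7 small nucleolar RNA genes of 8.36 to 8.65 against 5.93 to 6.51 on the 8 arrays of sets 2 and 3.

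Sequences just upstream of the start of transcription are shown for the 3 genes whose set 1 arrays did not overlap the other arrays, Stab1, Tek and Fcgr2b, and for Flt4, whose KO differences ran in opposite directions in the litters of the mTERT and mTR lines. Each is the 250 bases before the annotated start, 5′ to 3′ on the gene's own strand, from RefSeq with build GRCm38.p6. Of the 10 genes 7 had an entry there; Lyve1, Oit3 and Pecam1 had none and are named only. Capitals mark CNGGAAG, a core of the sites of ETS transcription factors, which endothelial genes often use; both strands were searched.
Stab1, chr14:31168642-31168891, minus strand: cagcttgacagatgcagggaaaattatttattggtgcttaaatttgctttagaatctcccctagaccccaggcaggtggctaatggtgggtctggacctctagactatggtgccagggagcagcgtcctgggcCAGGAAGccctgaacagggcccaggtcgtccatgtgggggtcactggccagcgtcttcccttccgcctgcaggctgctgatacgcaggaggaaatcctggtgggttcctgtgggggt
Tek, chr4:94739039-94739288, plus strand: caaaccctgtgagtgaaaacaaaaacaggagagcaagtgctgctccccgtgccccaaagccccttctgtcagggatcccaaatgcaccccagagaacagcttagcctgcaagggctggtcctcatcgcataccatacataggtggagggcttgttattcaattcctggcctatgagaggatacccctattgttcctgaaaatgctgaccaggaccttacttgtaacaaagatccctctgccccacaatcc
Fcgr2b, chr1:170976072-170976321, minus strand: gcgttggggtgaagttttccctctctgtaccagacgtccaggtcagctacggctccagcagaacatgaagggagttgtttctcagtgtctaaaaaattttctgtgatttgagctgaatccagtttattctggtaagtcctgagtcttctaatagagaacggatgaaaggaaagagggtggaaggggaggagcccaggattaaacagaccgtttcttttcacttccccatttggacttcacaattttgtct
Flt4, chr11:49609429-49609678, plus strand: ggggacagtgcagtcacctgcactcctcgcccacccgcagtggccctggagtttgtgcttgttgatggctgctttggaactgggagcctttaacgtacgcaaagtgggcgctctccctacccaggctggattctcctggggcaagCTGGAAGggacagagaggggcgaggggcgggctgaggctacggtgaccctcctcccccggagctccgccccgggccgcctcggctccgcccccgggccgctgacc
CNGGAAG was found in the windows of 2 of the 7 genes, Flt4 and Stab1, and in 26.6% of 32851 promoter windows of the same length. GATAA, a core of GATA factor sites, was found in none of the 7 and in 22.6% of the promoter windows. A match is a description of the letters, and no binding was measured.

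In the mTERT line all 10 genes had a higher mean in KO than in WT liver, but the differences were small and none passed the test. The log2 differences ran between 0.0064 for Pecam1 and 0.27 for Flt4, with a median of 0.14, beside a median of 0.012 over all 20197 probes tested. Of those probes 54.4% were above 0. The genes are not independent of each other, since they were measured on the same 6 arrays. Limma called 0 of the 10 genes and 0 of the 20197 probes after Benjamini-Hochberg adjustment (0%), while 283 probes and none of the 10 genes had an unadjusted p under 0.05. No gene had KO and WT values that did not overlap, while 2.47% of all probes had every KO value above every WT value and 1.86% had every KO value below.

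The growth factor receptors come first by role. Flt4, the VEGFR3 receptor for VEGF-C and VEGF-D, had values of 5.81, 5.81 and 6.06 in mTERT KO livers 1, 2 and 3, against 5.65, 5.35 and 5.88 in their WT littermates. Only mTERT WT 3 exceeded any KO value, and the KO was higher in 3 of 3 litters, by 0.16, 0.46 and 0.18. The log2 difference was 0.27 (SE 0.180, 95% interval -0.12 to 0.66, limma adjusted p = 1). Kdr, the VEGFR2 receptor through which VEGF-A drives endothelial growth, had 7.37, 8.37 and 8.24 in mTERT KO, against 7.30, 8.15 and 8.35 in mTERT WT. The spread lay between sets rather than genotypes: both set 1 livers were the lowest of their group. The Kdr difference of 0.062 (SE 0.294) was smaller than the SD within either group, 0.546 in KO and 0.559 in WT. Tek, the Tie2 receptor for angiopoietins, had 5.93, 6.97 and 6.98 in mTERT KO, against 6.06, 6.58 and 6.84 in mTERT WT. The set 1 pair was again lowest, with the KO below its WT littermate there and above it in the other 2 litters, and the log2 difference was 0.14.

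Among the scavenger receptors, Stab2, which takes up hyaluronan and other waste molecules, had 7.90, 8.06 and 8.06 in mTERT KO, against 7.81, 7.76 and 7.97 in mTERT WT. It was higher in the KO in 3 of 3 litters, with a mean of 8.01 ± 0.0945 in KO and 7.85 ± 0.113 in WT (SD, n = 3 each). Its relative Stab1, which takes up modified lipoproteins and SPARC, had 6.91, 6.68 and 6.53 in mTERT KO, against 6.74, 6.39 and 6.70 in mTERT WT. The third litter ran the other way, and the log2 difference was 0.093. Lyve1, a hyaluronan receptor shared with lymphatic vessels, had 5.73, 6.62 and 6.70 in mTERT KO, against 6.00, 6.07 and 6.54 in mTERT WT. The lowest and the highest of these 6 values were both from KO livers. Fcgr2b, the inhibitory Fc receptor that clears small immune complexes in sinusoids, had 6.74, 7.14 and 7.33 in mTERT KO, against 6.67, 7.07 and 7.06 in mTERT WT. It was higher in the KO in 3 of 3 litters, by 0.069, 0.076 and 0.27, but the KO of set 1 lay below the WT livers of sets 2 and 3.

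The lectin, the zona pellucida-domain gene and the adhesion molecule complete the list. Clec4g, the lectin LSECtin, spanned 9.62 to 9.82 in mTERT KO and 9.60 to 9.67 in mTERT WT and was higher in the KO in 3 of 3 litters by 0.016, 0.066 and 0.15. Oit3, a gene for a protein with a zona pellucida domain, spanned 7.32 to 7.84 in mTERT KO and 7.26 to 7.61 in mTERT WT. It too was higher in the KO in 3 of 3 litters, with a log2 difference of 0.21 (SE 0.141). Pecam1, the adhesion molecule CD31 of all endothelium, spanned 6.37 to 6.87 in mTERT KO and 6.49 to 6.72 in mTERT WT, and was higher in the KO in 1 of 3 litters.

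**Figure D1:**
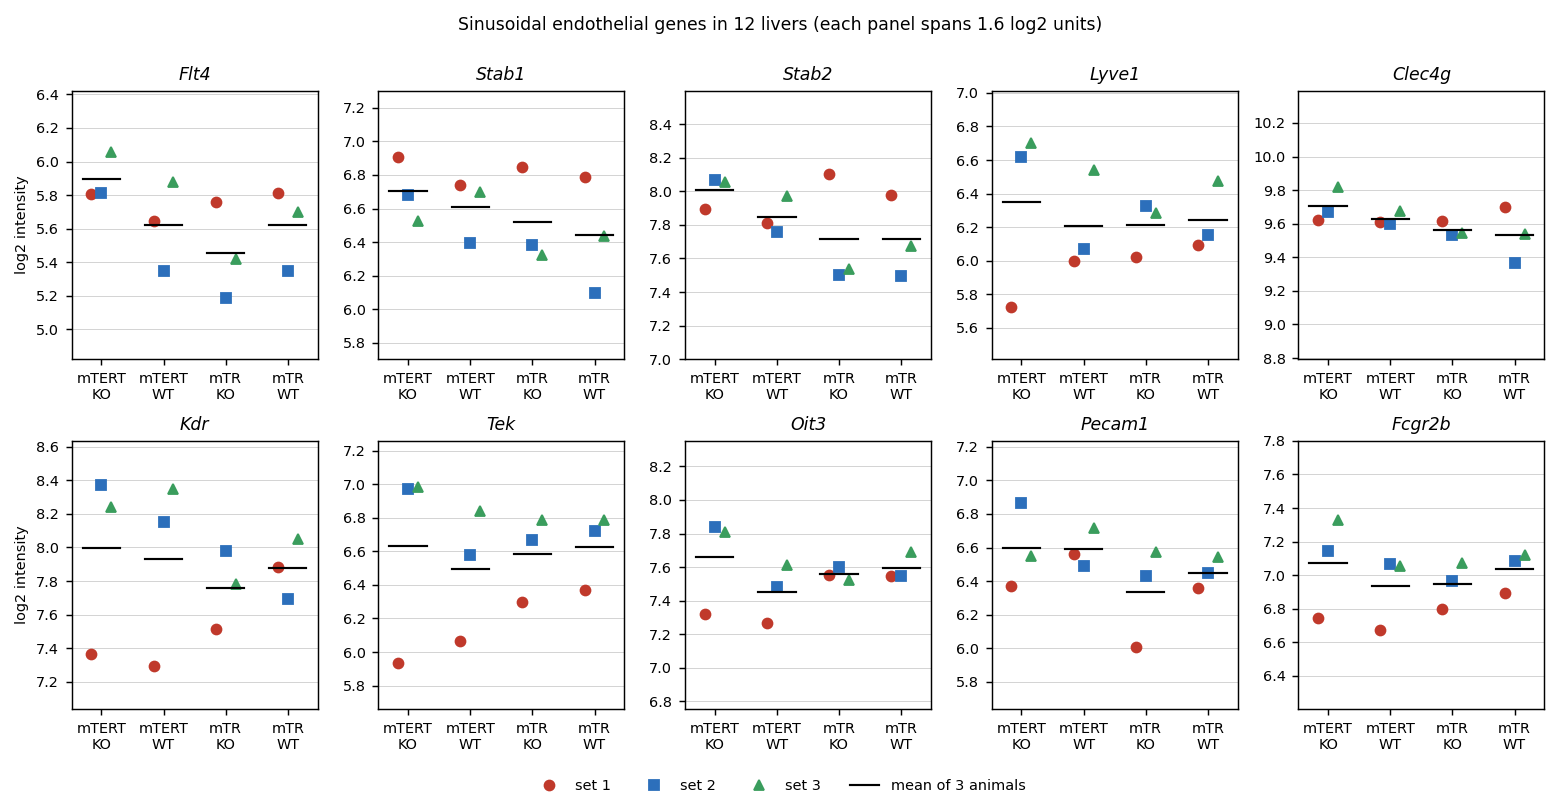
Deposited log2 intensity (vertical axis, own scale in each panel) of the 10 genes in each liver; points are single arrays, with the marker showing the set, and bars are group means. Tek in the set 1 livers lies between 5.93 and 6.37 and in all other livers between 6.58 and 6.98, while KO and WT values of every gene overlap in both lines.

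The intervals describe the mTERT differences under the main fit, which had no term for set or for pancreas and muscle RNA. They do not limit a KO effect apart from these. All 10 had 95% intervals inside a 2-fold change in either direction, as had 96.6% of all probes. The size rested on few arrays: the median of the 10 differences was 0.31 without mTERT KO 1, which held pancreas transcripts, and 0.023 without mTERT KO 3. Without the array labelled mTERT WT 1 it was 0.053, and Kdr, Tek and Pecam1 then had differences of -0.26, -0.077 and -0.0080. With the pancreas and muscle means as covariates it was -0.027, and Kdr and Tek then had differences of -0.51 and -0.31. Without the 5 arrays that held pancreas transcripts, which leaves mTERT WT 3 as the only WT array of the line, the median was 0.078.

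In the mTR line the 10 genes differed little in mean between KO and WT livers, and none passed the test. The mean was higher in KO for 2 genes and lower for 8, while 45.9% of all probes were above 0. The median of the 10 was -0.039 beside -0.010 over all probes, and the differences spanned -0.16 for Flt4 to 0.078 for Stab1. The median was -0.096 without mTR KO 3, -0.0049 without mTR KO 1 and 0.025 with the pancreas and muscle means as covariates. Limma called 0 of the 10 genes and 0 of 20197 probes (0%), and 195 probes, none of them of these genes, had an unadjusted p under 0.05. KO and WT values overlapped for every gene, while 1.84% of all probes had all KO values above all WT values and 2.64% had them all below.

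Flt4 had 5.76, 5.19 and 5.42 in mTR KO livers 1, 2 and 3, against 5.81, 5.35 and 5.70 in their WT littermates. The KO was lower in 3 of 3 litters, although the ranges overlapped, and the log2 difference was -0.16 (SE 0.180, 95% interval -0.56 to 0.23). Fcgr2b had 6.80, 6.97 and 7.07 in mTR KO, against 6.89, 7.09 and 7.12 in mTR WT. In 3 of 3 litters the KO was the lower, by amounts within the spread of either group. Kdr had 7.51, 7.98 and 7.78 in mTR KO, against 7.88, 7.70 and 8.05 in mTR WT, so the litters disagreed in direction. Tek had 6.30, 6.67 and 6.79 in mTR KO, against 6.37, 6.72 and 6.78 in mTR WT. These pairs were nearly equal, and the Tek difference was -0.041.

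Stab1 had 6.85, 6.38 and 6.33 in mTR KO, against 6.79, 6.10 and 6.44 in mTR WT. Stab2 had 8.11, 7.50 and 7.54 in mTR KO, against 7.98, 7.49 and 7.68 in mTR WT. In both of these stabilins the set 1 livers of either genotype were the highest of their group. Lyve1 spanned 6.03 to 6.33 in mTR KO and 6.09 to 6.47 in mTR WT. Clec4g spanned 9.53 to 9.61 in mTR KO and 9.36 to 9.70 in mTR WT, and its WT range held the whole KO range. Oit3 spanned 7.52 to 7.60 in mTR KO and 7.55 to 7.69 in mTR WT. Pecam1 spanned 6.01 to 6.57 in mTR KO and 6.36 to 6.54 in mTR WT, with the lowest value in mTR KO 1, where the pancreas mean was highest, and the part of pancreas RNA in that value was not tested. All 10 intervals lay inside a 2-fold change, as did 97.3% of all probes.

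**Figure D2:**
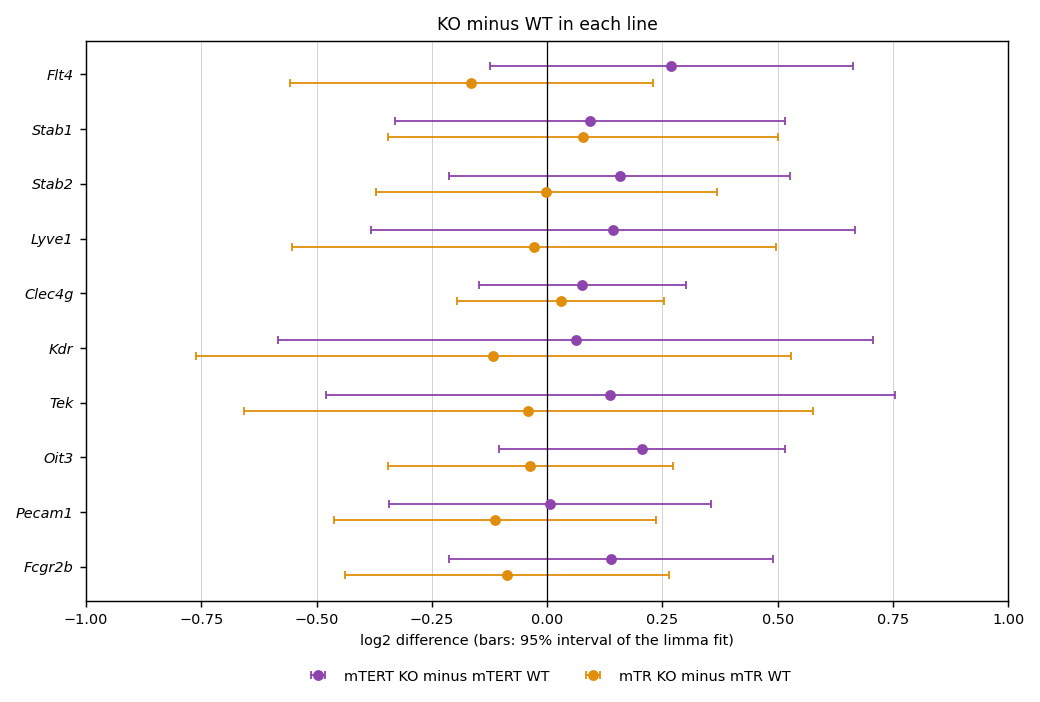
Log2 difference (horizontal axis) of KO minus WT for the 10 genes (rows) in each line; points are limma estimates over 3 KO and 3 WT livers and bars are 95% intervals. All 20 intervals include 0, and the Flt4 estimates, 0.27 for mTERT and -0.16 for mTR, lie farthest from 0 in their lines.

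The KO effects of the lines were compared directly. The mTR effect minus the mTERT effect was below 0 for all 10 genes, while 44.6% of all probes were above 0. The median of the 10 was -0.17 beside -0.021 over all probes, and limma called 0 of the 10 and 0 of 20197 probes (0%; 293 probes but none of the 10 genes at an unadjusted p under 0.05). The largest was Flt4 at -0.43 (SE 0.254, 95% interval -0.99 to 0.12, adjusted p = 1.00). Fcgr2b, whose litters also ran in opposite directions in the 2 lines, had -0.23 (SE 0.227). The intervals of 8 of the 10 genes lay inside a 2-fold difference between the effects, against 90.7% of all probes. The median of the 10 was 0.023 with the pancreas and muscle means as covariates.

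Averaged over both lines, the KO effect was above 0 for 8 genes and below for 2, while 50.6% of all probes were above 0. The median of the 10 was 0.053. That median was 0.11 without mTERT WT 3, -0.0096 without mTERT KO 3, 0.014 with the pancreas and muscle means as covariates and 0.0084 without the pancreas arrays. Limma called 0 of the 10 and 0 of 20197 probes (0%; 143 probes at an unadjusted p under 0.05). The wild types of the lines could differ in background, so mTR WT was compared with mTERT WT. The difference was above 0 for 4 genes and below for 6, while 54.5% of all probes were above 0. The median of the 10 was -0.031 (0.14 without mTERT WT 3), and 0 of the 10 and 0 of 20197 probes were called by limma (0%; 525 probes at an unadjusted p under 0.05). Averaged over the 10 genes, levels were 7.26 ± 0.252 in mTERT KO against 7.13 ± 0.187 in mTERT WT (SD, n = 3 each). They were 7.06 ± 0.0174 in mTR KO and 7.11 ± 0.106 in mTR WT (SD, n = 3 each). Ordered by this level, mTERT KO stood first, then mTERT WT, mTR WT and mTR KO, and no neighbours differed by more than the SD of the more variable group.

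Other endothelial genes, from lists of known markers, also showed no call in either line. Of 18 genes shared by all endothelium, 13 were above 0 and 5 below in the mTERT line (median 0.059), and 3 above and 15 below in the mTR line (median -0.061). Robo4, a guidance receptor of endothelium, differed by 0.16 (SE 0.0989) in the mTERT line, and Erg, an ETS factor, by -0.25 (SE 0.148) in the mTR line. Of 20 further sinusoidal genes tested, 11 were above 0 and 9 below in the mTERT line (median 0.020), and 7 above and 13 below in the mTR line (median -0.061). Gata4, a GATA factor that specifies this endothelium in mice, differed by -0.30 (SE 0.151) in the mTR line. Of 12 genes of large vessels and continuous endothelium, 6 were above 0 and 6 below in the mTERT line (median 0.0056). In the mTR line 3 were above and 9 below (median -0.083). Cd34, above background on 5 arrays, differed by -0.36 (SE 0.171) in the mTERT line. Of 4 lymphatic endothelial genes, 2 were above 0 and 2 below in each line. Of 8 angiocrine genes, which signal from endothelium to hepatocytes, 8 were above 0 in the mTERT line (median 0.11) and 3 in the mTR line (median -0.042); the Notch ligand Dll4 differed by 0.23 (SE 0.126) in the mTERT line. Of 7 genes for VEGF ligands and their other receptors, 6 were above 0 in mTERT and 2 in mTR livers. Vegfa, the main ligand of Kdr, differed by 0.14 (SE 0.117) in mTERT and by -0.15 (SE 0.117) in mTR livers. Of 6 angiopoietin-Tie genes, 3 were above 0 in each line. The 14 Kupffer cell genes had a median of -0.10 in mTERT and of -0.022 in mTR livers.

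Between sets of animals several of the genes passed the test. With group as a term in the fit, limma called 6 of the 10 genes between the 4 arrays of set 1 and the 8 arrays of sets 2 and 3: Stab1 was higher in set 1, and Tek, Kdr, Lyve1, Fcgr2b and Pecam1 were lower. Many probes of the array also differed, with 17.1% of 20197 called higher and 21.1% called lower, so 1 higher gene of 10 stands beside 17.1% and 5 lower genes of 10 beside 21.1%. The median of the 10 was -0.24 beside -0.023 over all probes. What a set number stands for beyond litter is not given in the labels, set 1 is made of only 2 litters, so its SEs may be too small, and 3 of its 4 arrays held pancreas transcripts against 2 of the other 8.

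Tek was 5.93, 6.06, 6.30 and 6.37 in the set 1 livers (KO and WT of the mTERT line, then KO and WT of the mTR line), against a lowest value of 6.58, a median of 6.78 and a highest value of 6.98 in sets 2 and 3. The ranges did not overlap. The means were 6.17 ± 0.202 (SD, n = 4) in set 1 and 6.79 ± 0.141 (SD, n = 8) in sets 2 and 3, a log2 difference of -0.63 (SE 0.0985, limma adjusted p = 0.000469). Within groups, set 1 minus the mean of the other 2 livers was -1.05 in mTERT KO, -0.64 in mTERT WT, -0.43 in mTR KO and -0.38 in mTR WT. Fcgr2b was 6.74, 6.67, 6.80 and 6.89 in the set 1 livers, in the same order of groups, against 6.97, 7.08 and 7.33 as lowest, median and highest in sets 2 and 3. Every set 1 value was again the lower, with a log2 difference of -0.33 (SE 0.0669, adjusted p = 0.00242). Of all probes, 12.6% had all 4 set 1 values below the other 8 and 10.4% had them all above.

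Stab1 was the gene that rose, with 6.91, 6.74, 6.85 and 6.79 in the set 1 livers, against 6.10, 6.42 and 6.70 as lowest, median and highest in sets 2 and 3. All 4 set 1 values exceeded the other 8, and the means were 6.82 ± 0.0722 (SD, n = 4) in set 1 and 6.44 ± 0.196 (SD, n = 8) in sets 2 and 3, a log2 difference of 0.38 (SE 0.0886, adjusted p = 0.0057). Stab2, Flt4 and Clec4g differed by 0.19, 0.16 and 0.044 and were not called. Within groups Stab2 had differences of -0.16 in mTERT KO and -0.056 in mTERT WT, but 0.59 in mTR KO and 0.39 in mTR WT, so the lines ran in opposite directions. The difference between lines was not tested. Kdr fell by 0.56 (SE 0.141, adjusted p = 0.00838), with means of 7.52 ± 0.262 in set 1 and 8.08 ± 0.250 in sets 2 and 3. Within groups its difference was -0.94 in mTERT KO, -0.95 in mTERT WT and -0.37 in mTR KO, but 0.012 in mTR WT. That liver, mTR WT 1, is the set 1 array without pancreas transcripts, and its differences were -0.38 for Tek and -0.21 for Fcgr2b. Kdr read 8.15 on mTERT WT 2, with a pancreas mean of 8.85, and 7.30 on the array labelled mTERT WT 1, with a pancreas mean of 7.30. The part of pancreas RNA in the Kdr values was not tested. Lyve1 fell by 0.43 (SE 0.122, adjusted p = 0.0148) and Pecam1 fell by 0.25 (SE 0.0890, adjusted p = 0.0403), both with overlapping ranges. With the litter as a random block Pecam1 lost its call (adjusted p = 0.0564). Oit3 differed by -0.22 (adjusted p = 0.0516).

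**Figure D3:**
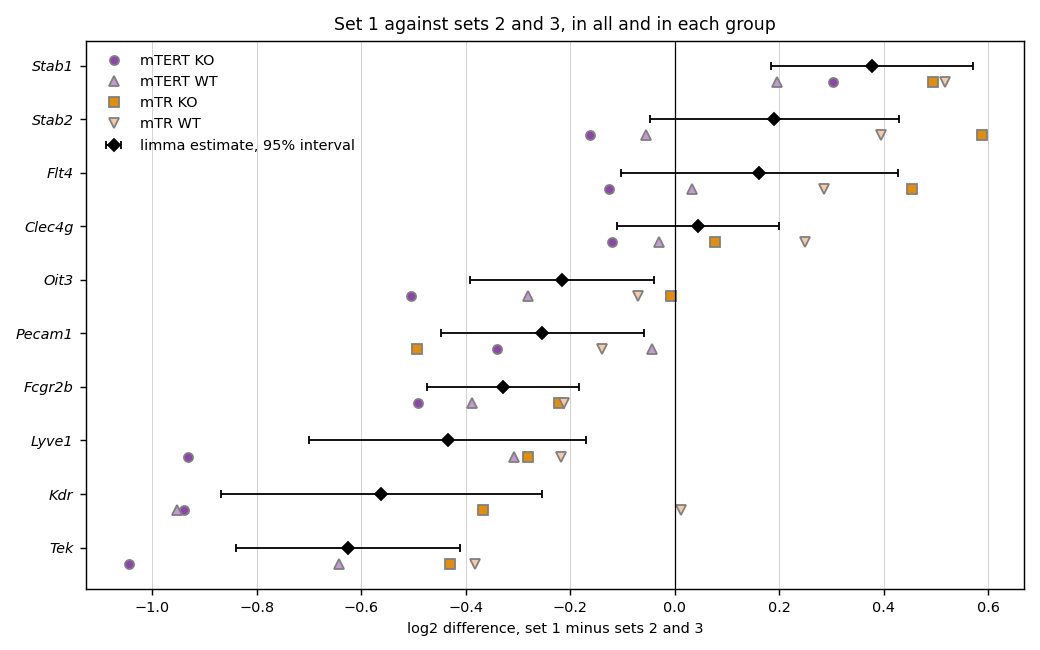
Log2 difference (horizontal axis) of set 1 livers minus livers of sets 2 and 3 for the 10 genes (rows); coloured points are the differences within each of the 4 groups, and the black point with its bar is the limma estimate with its 95% interval. Tek is below 0 in all 4 groups, between -1.05 and -0.38, and Stab1 above 0 in all 4.

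Set 1 and pancreas RNA cannot be told apart in full, since 3 of the 4 set 1 arrays held pancreas transcripts. With the pancreas and muscle means as covariates, limma called 0 of the 10 genes (no adjusted p below 0.0545). Beside this, 6.35% of all probes were called higher and 6.53% lower. Without the 5 arrays that held pancreas transcripts, mTR WT 1 is the only set 1 array left, and the median of the 10 differences was -0.15. With those covariates the differences were 0.48 for Stab1, -0.48 for Tek, -0.25 for Fcgr2b, -0.26 for Lyve1, -0.17 for Pecam1 and -0.16 for Kdr. Kdr also lost its call without mTERT KO 1 (-0.44, adjusted p = 0.0525) or without the array labelled mTERT WT 1 (-0.43, adjusted p = 0.0526), and Lyve1 without mTERT KO 1 (-0.27, adjusted p = 0.0834), which left 3 genes called there. Pecam1 lost its call without any 1 of 8 arrays, mTERT KO 1 and 2, mTERT WT 3, mTR KO 1, 2 and 3, and mTR WT 1 and 3 (adjusted p of 0.0553 to 0.192). Oit3 gained a call without mTR KO 1 or 3 or mTR WT 2 (adjusted p of 0.0312 to 0.0452).

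Of 20 further sinusoidal endothelial genes 9 were called lower and 0 higher in set 1, beside 21.1% lower and 17.1% higher over all probes, which also stand beside the counts of the lists that follow. With the pancreas and muscle means as covariates 1 of the 20 was called lower, beside 6.53% of all probes. The median of the 20 was -0.25 in the main fit and -0.12 without the pancreas arrays, where 1 set 1 array is left. The mannose receptor gene Mrc1 fell by 0.38 (SE 0.0613), the netrin gene Ntn4 fell by 0.36 (SE 0.0584), and the lectin-like receptor gene Clec1b fell by 0.48 (SE 0.0843). Genes shared by all endothelium were mixed, with 3 of 18 higher and 3 lower: Eng, a co-receptor for BMP9, rose by 0.37 and the transcription factor gene Sox18 by 0.26, and the tight junction gene Cldn5 fell by 0.45. Of 12 genes of large vessels and continuous endothelium 3 were higher and 1 lower; the Wnt enhancer gene Rspo3 fell by 0.61, and the ephrin receptor gene Ephb4 rose by 0.27. Of 8 angiocrine genes 3 were lower and 0 higher, Rspo3 again with the hepatocyte growth factor gene Hgf, which fell by 0.29, and the Notch ligand gene Jag1, which fell by 0.21. Of 7 genes for VEGF ligands and their other receptors 1 was called, the co-receptor gene Nrp1, which fell by 0.35. Of 6 angiopoietin-Tie genes 1 was called, the Tek ligand gene Angpt1, which fell by 0.27 at a level below background. Of 14 Kupffer cell genes 2 were higher, the lectin gene Clec4f by 0.68 and the complement gene C1qb by 0.35. Of 11 stellate cell genes 1 was lower, and of 9 hepatocyte genes 4 were higher and 1 lower. These lists are described by their counts alone. With the pancreas and muscle means as covariates, 2 genes shared by all endothelium were called higher and 1 lower. Large-vessel and angiocrine genes then had 1 lower each, and Kupffer cell and hepatocyte genes 1 higher each. VEGF, angiopoietin-Tie and stellate cell genes had 0, beside 6.35% higher and 6.53% lower over all probes. Without the pancreas arrays 1 set 1 array is left, so calls of these lists are not given there.

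Within sets 2 and 3 the 10 genes moved together from liver to liver. Among the 8 arrays of sets 2 and 3, 45 of 45 pairs of genes had a correlation above 0, with a median Pearson r of 0.72 and a range of 0.229 to 0.942. The share over all pairs of genes on the array is not given, so this cannot be called particular to the 10 genes. Among these arrays, mTERT WT 2 and mTR WT 2 held pancreas transcripts. Over all 12 arrays 36 of 45 were above 0, with a median of 0.319 and a range of -0.577 to 0.936. After their values were seen, the genes were split into those above 0 and those below 0 in the set 1 comparison. Flt4, Stab1, Stab2 and Clec4g correlated with each other at 0.627 to 0.859 (6 pairs), and Lyve1, Kdr, Tek, Oit3, Pecam1 and Fcgr2b at 0.377 to 0.936 (15 pairs). Between these groups the 24 pairs ran between -0.577 and 0.349, all over 12 arrays. The shift of set 1 that defined the split also enters these correlations, so they are no separate sign of it. Over sets 2 and 3 alone the median r was 0.823 and 0.667 within the groups and 0.735 between them. The points share arrays, groups and litters, so these correlations are descriptions.

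**Figure D4:**
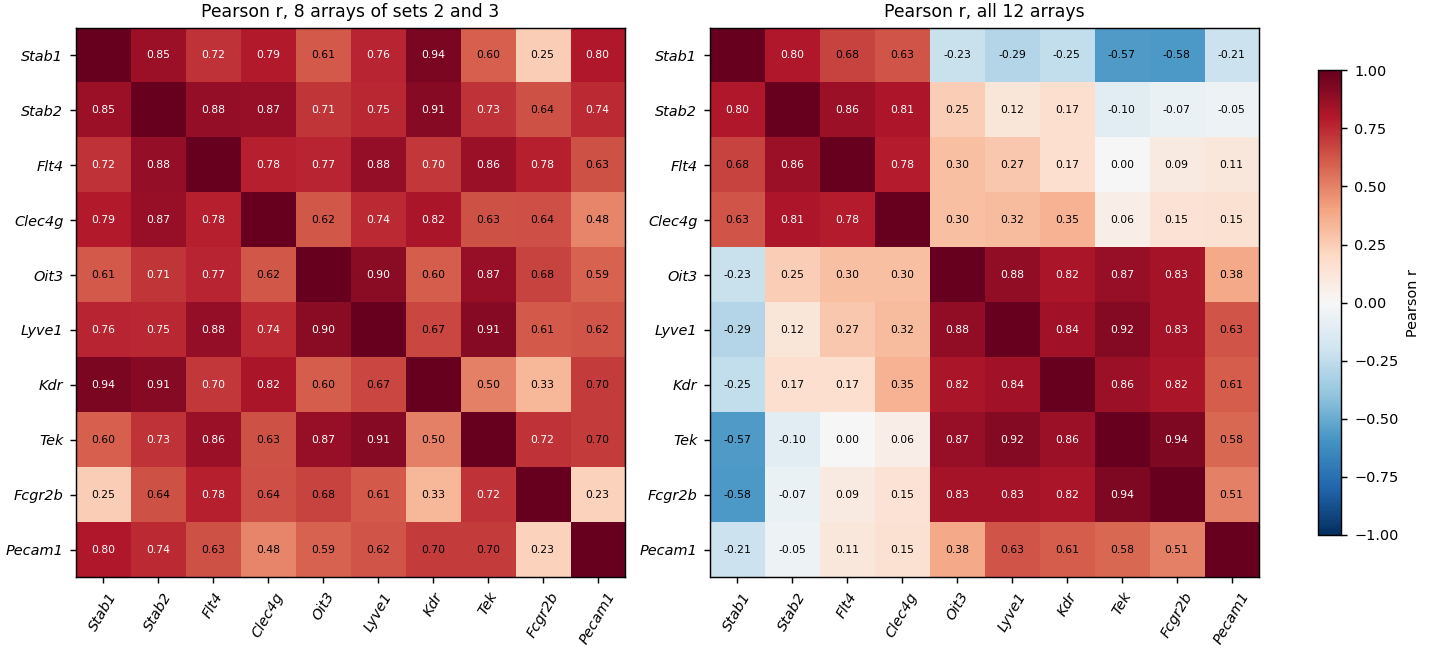
Pearson correlation of log2 values between each pair of the 10 genes, over the 8 arrays of sets 2 and 3 (left) and over all 12 arrays (right); the colour runs between -1 and 1. All pairs are above 0 on the left, with a lowest value of 0.229, while on the right Stab1 falls to -0.577 with Fcgr2b.

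For each gene the closest of the others over 12 arrays was as follows. Tek and Fcgr2b were closest to each other (r 0.936), and Lyve1 was closest to Tek (0.918). Kdr was also closest to Tek (0.856), Oit3 to Lyve1 (0.884) and Pecam1 to Lyve1 (0.628). Stab2 and Flt4 were closest to each other (0.859), Stab1 to Stab2 (0.797) and Clec4g to Stab2 (0.811). The shift of set 1 enters these pairs too. Over sets 2 and 3 alone, Kdr and Stab1 were closest to each other (0.942), and Kdr had 0.502 with Tek. Pecam1 was then closest to Stab1 (0.799), Fcgr2b to Flt4 (0.777), Flt4 to Lyve1 (0.879) and Stab2 to Kdr (0.912). Lyve1 and Tek were then closest to each other (0.912), Oit3 to Lyve1 (0.899) and Clec4g to Stab2 (0.868). Among 13144 other named genes, those most like the mean of the 10 over 12 arrays were Cc2d2a (r 0.949), Pxdn (0.946), F11r (0.941), Chmp7 (0.939) and Mxra8 (0.924). Over the 8 arrays of sets 2 and 3 their r was 0.946, 0.965, 0.947, 0.927 and 0.951. Cc2d2a lay below the background level on 8 of the 12 arrays. Pxdn encodes peroxidasin, which crosslinks collagen IV of basement membranes, and F11r the junctional adhesion molecule JAM-A; Cc2d2a is known as a gene of the ciliary transition zone and Chmp7 as a gene of nuclear envelope sealing.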

How the data were processed

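Liver RNA of 12 mice was measured on 1-colour Affymetrix arrays. The log2 values are those the authors deposited in the series matrix; tools named in the submitters' processing notes, with no role or order, are PLIER, GCOS 1.4 and Affymetrix Expression Console. The normalization and genome build are not given in the sources used here, and the logarithm's base was read as 2 from the range of 2.62 to 13.83.

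Of 28853 probes, 21789 had 1 symbol, 1621 several and 5443 none; 21698 were matched to RefSeq names (GRCm38.p6). The members, gene lists and comparisons were chosen with earlier results of these data known. Groups came from the labels. Tests used limma 3.58.1 in R 4.3.3: lmFit of 4 group means over 12 arrays and eBayes, with two-sided p-values adjusted by Benjamini-Hochberg over those 20197 probes whose mean reached the 30th percentile (3.90) and a threshold of 0.05; the set comparison added a term for set 1. The fit was tested on simulated data with independent noise of the same SD for every probe. These data held no differences between sets, litters or tissue content, so they cannot show how the fit behaves on these arrays. For arrays, their number limits the precision.

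Named were all 10 members, up to 3 genes with the smallest p from each other list, and the 5 genes most like the members' mean; not all picks are printed. Same-numbered KO and WT arrays correlated, after removal of group means, at 0.692, 0.135 and 0.623 for mTERT and 0.458, 0.151 and 0.552 for mTR (sets 1, 2 and 3). KO 2 correlated more with WT 3, at 0.416 in mTERT and 0.464 in mTR, so the data do not settle the pairing of set 2. From the series text on littermates the number was taken to pair the samples, and the litter served as a block in an alternative. Other alternatives were quantile normalization, median centring, other filters, trend and robust eBayes, fits of the compared groups alone, 1 probe or the probe mean per gene, pancreas and muscle covariates, and leaving out the pancreas arrays, set 1 or each array. The set number as a fixed term, and the covariate and pancreas alternatives for the other gene lists, were added after seeing the data.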

Additional observations from a re-analysis of the deposited data

Results flagged for a closer look

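The KO difference of Flt4 ran in opposite directions in the lines, higher in the KO in 3 of 3 mTERT litters and in 0 of 3 mTR litters. The mTR effect minus the mTERT effect was -0.43 (SE 0.254) and was not called by limma (unadjusted p = 0.115). Fcgr2b did the same, higher in the KO in 3 of 3 mTERT litters and in 0 of 3 mTR litters, with a difference of -0.23 (SE 0.227) that was not called either; with the pancreas and muscle means as covariates that difference was 0.13 and the mTERT difference -0.15. Both were picked because every litter of one line ran against every litter of the other.

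The difference of set 1 from sets 2 and 3 ran in opposite directions in the lines for Stab2 and for Clec4g, above 0 in KO and WT of mTR and below 0 in KO and WT of mTERT. For Stab2 the mean difference in mTR minus that in mTERT was 0.60, and for Clec4g it was 0.24. The values of Clec4g were 0.076 and 0.25 in KO and WT of mTR and -0.12 and -0.030 in KO and WT of mTERT. These differences between lines were not tested, and each rests on 1 litter of set 1 per line.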

How the results depend on the processing

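No member was called in any KO comparison, nor between the wild types, under any alternative. Over all probes, calls appeared without the 5 pancreas arrays: 72 for mTERT KO, 36 for the average KO effect, 38 for the difference between the effects and 97 between the wild types. Without set 1 there was 1 call each for mTERT KO, mTR KO and the average. Leaving out 1 array gave 0 to 41 for mTERT KO, 0 to 28 for the average, 0 to 30 for the difference and 0 to 42 between the wild types, each highest without mTERT WT 2. The mTERT WT arrays then left were those labelled mTERT WT 1 and mTERT WT 3, with skeletal muscle means of 6.83 and 6.57. The members' median for mTERT KO ran between 0.023 (without mTERT KO 3) and 0.31 (without mTERT KO 1). For the difference it ran between -0.40 (without mTERT KO 1) and -0.052 (without mTERT KO 2), and was 0.023 with pancreas and muscle covariates. Between the wild types leaving out 1 array gave -0.094 (without the array labelled mTERT WT 1) to 0.14 (without mTERT WT 3), and it was -0.18 with covariates and -0.13 without the pancreas arrays. The causes were not tested.

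Uncalled differences changed sign as follows. For mTERT KO, Pecam1 was -0.019 after quantile normalization. With covariates Lyve1 was -0.081, Kdr -0.51, Tek -0.31, Pecam1 -0.065 and Fcgr2b -0.15. Without the pancreas arrays Stab1 was -0.097, Kdr -0.044 and Pecam1 -0.0063. Leaving out 1 array gave -0.016 to 0.18 for Stab1, -0.033 to 0.45 for Lyve1, -0.26 to 0.37 for Kdr, -0.077 to 0.49 for Tek and -0.13 to 0.12 for Pecam1. For mTR KO, quantile normalization gave 0.025 for Stab2, 0.0033 for Lyve1 and 0.0027 for Tek. Covariates gave 0.10 for Lyve1, 0.040 for Kdr, 0.11 for Tek and 0.021 for Oit3. Without the pancreas arrays Stab1 was -0.26, Lyve1 0.022, Clec4g -0.081, Tek 0.15, Pecam1 0.051 and Fcgr2b 0.013. Without set 1 Kdr was 0.0095 and Pecam1 0.0049. Leaving out 1 array gave -0.094 to 0.25 for Stab1, -0.20 to 0.13 for Stab2, -0.10 to 0.087 for Lyve1, -0.056 to 0.11 for Clec4g, -0.23 to 0.0054 for Kdr, -0.17 to 0.10 for Tek, -0.061 to 0.012 for Oit3 and -0.23 to 0.051 for Pecam1. The difference between the effects for Fcgr2b was 0.13 with covariates.

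For set 1, probes called were 7709, but 5064 with 1 probe per gene, 5024 with the mean of a gene's probes, where fewer probes are tested, 2601 with covariates and 272 without the pancreas arrays. Members called were 6, but 0 with covariates and 0 without the pancreas arrays, where 1 array of set 1 is left and is assumed to vary like the rest. Leaving out 1 array gave 3 (without mTERT KO 1) to 7 members, and -0.024 to 0.099 for Clec4g. With the litter as a replicate block 5 members and 7135 probes were called, and in the paired KO fits 0; the block ended the call of Pecam1 and changed no other call of a member. Median centring, the 50th percentile filter and trend with robust eBayes called 7 each, with Oit3 added. The small groups limit what can be resolved, and the main KO fits had no term for set or litter, so spread between sets widened their intervals. The interval of Kdr for mTERT KO ran between -0.58 and 0.71, while its litter differences were 0.071, 0.23 and -0.11. In the main limma fits 283 probes for mTERT KO and 195 for mTR KO had an unadjusted p under 0.05. With the litter as a block these were 1037 and 851, again with 0 called.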
